A study of Mus musculus with 25 samples.

Results

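The effect of losing KEAP1 in squamous cells on esophageal RNA was compared between adult mice and pups. For each gene, the log2 fold change of KEAP1-deficient over wild-type libraries was taken within the adult table and within the pup table, and the pup value was subtracted from the adult value. The members are the 19094 genes that share an Ensembl identifier between both tables, of 21954 genes listed in either one; 19031 of them passed the filter on low values in both tables and were tested, and the other 63 were not. The comparison uses 14 of the 25 libraries of the series. Adult KEAP1-deficient mice (KEAP1flox/flox::K5CreERT2, 4 libraries) and adult wild-type mice (4 libraries) were 6 to 9 weeks old and were sampled 1 week after tamoxifen at 100 µg per g of body weight, a treatment that the study text gives for wild type too. KEAP1-deficient pups (KEAP1flox/flox::K5Cre, 3 libraries) and wild-type pups (3 libraries) were 7 to 10 days old and received Cre from a constitutive keratin 5 transgene. Age, the form of Cre, tamoxifen and the time since recombination therefore differ together between the stages, and their parts in any difference below cannot be told apart. Whether wild-type mice carried Cre or floxed alleles is not stated in the labels. Nor do they state whether libraries are separate animals; p-values then reflect only library-to-library spread, which may be technical.

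KEAP1 is the substrate adaptor of a ubiquitin ligase that marks the transcription factor NRF2 (gene Nfe2l2) for degradation. When KEAP1 is lost or modified, NRF2 accumulates, pairs with small MAF proteins at antioxidant response elements and raises genes of glutathione synthesis, detoxification and NADPH supply. The esophagus of the mouse is lined by a stratified, keratinized squamous epithelium, in which basal cells divide and suprabasal cells build a cornified layer. In mice with constitutive loss of KEAP1, thickened cornified layers in the upper digestive tract are a known feature.

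Depth was 22484293 to 31344281 reads in adult KEAP1-deficient libraries, 27529854 to 32281362 in adult wild-type libraries, 19017478 to 19650112 in KEAP1-deficient pups and 18791982 to 19179299 in wild-type pups. All values below are normalised read counts, converted back from deposited log2 values, and fold changes were taken after adding 1 and are given in log2 units, so that those of low genes come out too small. The adult and pup tables were normalized separately, so levels are set side by side only as a description. RNA came from whole esophagus, so fewer cells of a type and less RNA per cell cannot be told apart. The squamous markers Krt5, Krt14 and Krt13 were present in all 14 libraries, and so were muscle and stromal markers. Library 2 of the KEAP1-deficient pups stood apart by glandular stomach genes: Gkn1 was at 1218, Tff1 at 2117 and Muc5ac at 1134 normalised counts there, and at 2.13 or below in the other KEAP1-deficient pup libraries. In wild-type pups Gkn1 and Tff1 were at 22.3 or below, but Muc5ac was at 284, 302 and 32.5. Library 4 of the adult wild type stood apart by Ltf, at 901 normalised counts against 3.48 to 11.8 in the other adult wild-type libraries. With both left out, 8271 differences were called in place of 8967, of which 7932 were shared. Ddx3y, a gene of the Y chromosome, was at 542 normalised counts in wild-type pup library 1. It was at 906 to 1203 in the other compared libraries. The cause of this departure was not tested.

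Keap1 itself, the deleted gene, was reduced without overlap between genotypes at both stages. It averaged 757 ± 40.6 normalised counts in adult KEAP1-deficient libraries and 1148 ± 49.8 in adult wild-type libraries (SD, n = 4 each). In pups it averaged 779.9 ± 50.5 in KEAP1-deficient libraries and 1069 ± 21.8 in wild-type libraries (SD, n = 3 each). The reduction of Keap1 RNA did not differ detectably between stages: the difference of effects was -0.14 on the log2 scale (95% interval -0.45 to 0.17, adjusted p = 0.45).

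Loss of KEAP1 changed much of the esophageal transcriptome at both stages, and the changes had little in common across genes. In adults 9290 of 19857 genes were called (46.8%; 24.1% higher and 22.7% lower in KEAP1-deficient mice), and in pups 10404 of 21007 (49.5%; 26.3% higher and 23.2% lower). The difference between the stages was called for 8967 of 19031 genes (47.1%): for 3922 the effect was higher in adults (20.6%) and for 5045 it was lower in adults (26.5%). The median difference over all genes was -0.05. Across genes, which are not independent replicates, adult and pup effects had a Pearson correlation of 0.15 and a Spearman correlation of 0.13. Of 5280 genes called at both stages, 3163 moved in the same direction. For 2117 genes (11.1% of those tested) the direction turned and the difference was called: 936 rose in adults and fell in pups (4.92%), and 1181 fell in adults and rose in pups (6.21%). Among the other called differences, 1212 genes moved the same way with unequal size, 855 of them more in pups. A further 2272 were called only by the adult test and 3064 only by the pup test, and 302 were called by neither. Called differences of at least 5 log2 units were found for 290 genes, 221 of them negative.

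**Figure D1:**
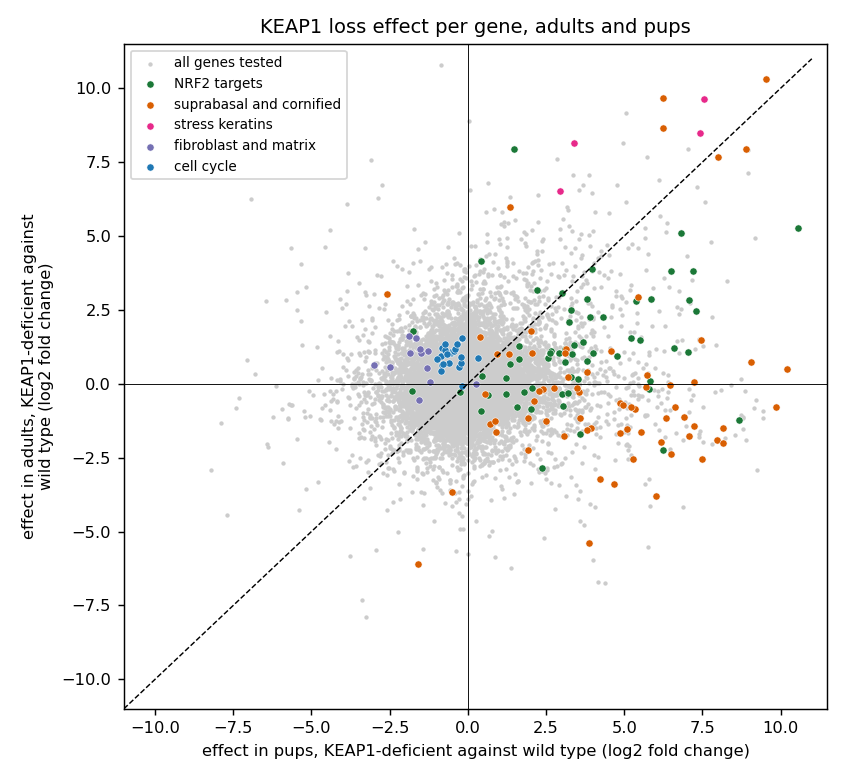
Effect of KEAP1 loss in adults (vertical axis) against the effect in pups (horizontal axis), as log2 fold changes of KEAP1-deficient over wild-type libraries for 19031 genes, with members of 5 groups of gene lists coloured and a dashed line of equal effect. Suprabasal and cornified genes lie mostly to the right of and below the line, most NRF2 targets lie right of it, and stress keratins, cell cycle genes and most matrix genes lie above it.

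Most enzymes of glutathione and thioredoxin metabolism rose at both stages, and most rose further in pups. Of 15 genes in this list, 11 rose and 2 fell in adults, and 14 rose and 1 fell in pups. Those that fell, named after their values were seen, were Gpx4, a peroxidase of lipid hydroperoxides, at both stages (-0.29 in adults and -0.25 in pups) and Chac1, which degrades glutathione, in adults (-0.85, against a rise of 2.02 in pups). The effect was lower in adults for 12 of them, and the other 3 differences were not called; the median difference was -1.71, against -0.05 over all genes. Slc7a11, the cystine importer that supplies glutathione synthesis, had 54147, 45541, 41317 and 44579 normalised counts in adult KEAP1-deficient libraries, against 1057, 1271, 1100.1 and 1412 in adult wild-type libraries. In pups it had 90752, 88246 and 87175 in KEAP1-deficient libraries, against 56.1, 57.8 and 59.0 in wild-type libraries. The groups lay far apart at both stages, and wild-type adults stood well above wild-type pups. Its effect was 5.26 in adults and 10.56 in pups, a difference of -5.30 (SE 0.14, limma adjusted p = 6.4e-19).

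Gpx2, a glutathione peroxidase of epithelia, had 7085, 7359.6, 6810.1 and 6634 normalised counts in adult KEAP1-deficient libraries, against 3694, 2847, 3492 and 3299 in adult wild-type libraries. Its pup counts were 13612, 15118 and 11747 in KEAP1-deficient libraries, against 85.5, 91.6 and 128 in wild-type libraries. No library of either genotype overlapped the other, but the adult step was small beside the pup one, with effects of 1.07 and 7.05 and a difference of -5.98 (SE 0.20, adjusted p = 2.4e-16). Gss, glutathione synthetase, rose by 2.25 in adults and 4.31 in pups (difference -2.06, SE 0.16, adjusted p = 3.8e-11). Gclc and Gclm, the catalytic and modifier subunits of glutamate-cysteine ligase, were picked after their values were seen: Gclc rose by 5.09 in adults and 6.80 in pups, and Gclm by 2.25 and 3.91. Gsr, glutathione reductase, stood out by an even effect. It had 3896, 3139.8, 3023 and 3171 normalised counts in adult KEAP1-deficient libraries, against 364, 424, 459 and 322 in adult wild-type libraries. At the pup stage it had 4959, 5241 and 4683 in KEAP1-deficient libraries, against 632, 549.6 and 668 in wild-type libraries. The effects were 3.08 in adults and 3.01 in pups, and the 95% interval of their difference ran from -0.28 to 0.42.

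The promoters of some of these genes hold the letters of an antioxidant response element core, TGACNNNGC, and 4 windows are printed because they hold these letters in genes that rose with KEAP1 loss at both stages. The sequences are from RefSeq (GRCm38.p6), each of 59 bases, printed along the strand of the gene. The capitals mark the match, which lies on the opposite strand in all 4 and so reads GCNNNGTCA. The matched bases lie 134 to 126 bases before the start of Gclm (chr3:122245398-122245456), 133 to 125 before Prdx1, which encodes a peroxiredoxin (chr4:116685441-116685499), 92 to 84 before Txnrd1, thioredoxin reductase (chr10:82859089-82859147), and 57 to 49 before G6pdx, glucose-6-phosphate dehydrogenase (chrX:74428904-74428962, minus strand). These 4 were picked after their values were seen.
Gclm: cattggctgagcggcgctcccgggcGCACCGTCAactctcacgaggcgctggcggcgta
Prdx1: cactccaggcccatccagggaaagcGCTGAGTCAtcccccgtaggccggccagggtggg
Txnrd1: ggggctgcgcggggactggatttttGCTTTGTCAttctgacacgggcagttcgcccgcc
G6pdx: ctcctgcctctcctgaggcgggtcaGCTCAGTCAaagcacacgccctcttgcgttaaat
On both strands, a match was found in 4071 of 32851 promoter windows of all genes (12.4%), in 2046 of 12440 tested genes with a window (16.4%), and in 14 of 52 genes of the glutathione, detoxification and NADPH lists with a window (26.9%). By list, these were 5 of 12 glutathione genes (41.7%), 6 of 32 detoxification genes (18.8%, near the share of tested genes) and 3 of 8 NADPH genes (37.5%). In the window of Prdx1 the match overlaps the AP-1 letters TGANTCA; in the other 3 it does not. A match describes letters and is not evidence of binding. The differences of effect of these genes were -1.66 for Gclm, -0.94 for Prdx1, -2.09 for Txnrd1 and -3.06 for G6pdx.

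Detoxification enzymes and exporters rose almost throughout in pups and unevenly in adults. Of 37 genes tested, 33 rose and 1 fell in pups, while 22 rose and 7 fell in adults. The effect was lower in adults for 29 and higher in adults for 4, with a median difference of -2.58; 7 genes fell in adults and rose in pups. Nqo1, a quinone reductase widely used as a readout of NRF2, had 6333, 6156, 5766 and 5546 normalised counts in adult KEAP1-deficient libraries, against 1240.3, 984, 1035 and 1094 in adult wild-type libraries. For pups the counts were 13212, 12026 and 11118 in KEAP1-deficient libraries, against 72.1, 80.9 and 77.0 in wild-type libraries. It rose at both stages, by 2.45 in adults and 7.28 in pups (difference -4.83, SE 0.15, adjusted p = 9.2e-18).

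Aldh3a1, an aldehyde dehydrogenase abundant in exposed epithelia, turned direction. It had 11046, 12028, 10612 and 8593 normalised counts in adult KEAP1-deficient libraries, against 29592, 24176, 22606 and 23433 in adult wild-type libraries. The counts in pups were 67505, 69881 and 60001 in KEAP1-deficient libraries, against 115, 160.1 and 216 in wild-type libraries. It fell by 1.24 in adults and rose by 8.69 in pups, without overlap of genotypes at either stage (difference -9.93, SE 0.26, adjusted p = 4.4e-17). Cbr3, a carbonyl reductase, rose by 1.49 in adults and 5.52 in pups (difference -4.03, SE 0.17, adjusted p = 8.7e-16). The 4 genes with a higher effect in adults, named after their values were seen, were the aldo-keto reductases Akr1c12, Akr1c14 and Akr1c18 and the exporter Abcc2. Of these Akr1c18, a hydroxysteroid dehydrogenase, had 1277, 1993, 1433 and 1568 normalised counts in adult KEAP1-deficient libraries, against 3.39, 4.64, 6.22 and 7.39 in adult wild-type libraries. Its values in pups were 187, 149 and 102 in KEAP1-deficient libraries, against 37.4, 60.5 and 54.8 in wild-type libraries, and the difference of effects was 6.47 (SE 0.60, adjusted p = 2.1e-07). Several Gst, Akr1 and Aldh1 genes of this list are close paralogs whose reads may be shared, so their single values are uncertain.

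Genes that supply NADPH and the pentose phosphate pathway rose in pups and moved little in adults. All 8 rose in pups; in adults 4 rose and 1 fell, and the difference was called for all 8, with a median of -1.57. Me1, malic enzyme, had 5559, 4626, 4865 and 5137 normalised counts in adult KEAP1-deficient libraries, against 6836, 6208, 6410.0 and 5759 in adult wild-type libraries. Its levels in pups were 7176, 7143 and 6881 in KEAP1-deficient libraries, against 616, 819 and 871 in wild-type libraries. Its adult effect was not called (-0.32, adjusted p = 0.14), although the adult genotypes did not overlap, and it rose by 3.21 in pups (difference -3.54, SE 0.21, adjusted p = 5.3e-13). G6pdx rose by 0.76 in adults and 3.83 in pups. Pgd, phosphogluconate dehydrogenase, had an uncalled adult effect of 0.17 and rose by 3.52 in pups.

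Heme and iron genes followed a similar order in part: 5 of 7 differences were called, all lower in adults, beside 26.5% of all genes. Hmox1, heme oxygenase 1, had 2172, 2229, 1591 and 2259.8 normalised counts in adult KEAP1-deficient libraries, against 1749.6, 1857, 2288 and 1137 in adult wild-type libraries, which overlap. In pups it had 5719.6, 6180.3 and 5589 in KEAP1-deficient libraries, against 191, 201 and 231 in wild-type libraries, far apart. The difference was -4.55 (SE 0.27, adjusted p = 5e-11). Blvrb, biliverdin reductase B, differed by -1.76 and Fth1, the ferritin heavy chain, by -0.95. With the mean of the striated muscle markers as a covariate in each fit, 2 differences of this list were called in place of 5, and that of Fth1 was -0.67 (adjusted p = 0.072). In adults that mean moved with genotype without overlap, so here and below a call lost in this fit may reflect a wider SE.

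Proteasome subunits showed a small and even rise: 22 of 27 rose in adults and 27 of 27 in pups. The effect was lower in adults for 22, with a median difference of -0.44. Psma7 rose by 0.76 in adults and 1.63 in pups (difference -0.87, SE 0.10, adjusted p = 3.2e-08), and Psmd12 had an uncalled 0.07 in adults and rose by 1.08 in pups (difference -1.01, SE 0.12, adjusted p = 1.9e-07). With the same covariate, 7 proteasome differences were called in place of 22.

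Partners and regulators of NRF2 also rose mainly in pups. Of 12 genes, 10 rose in pups and 1 rose and 5 fell in adults; 9 differences were called, all lower in adults. Nfe2l2 itself had 4231, 4209, 4403 and 4364 normalised counts in adult KEAP1-deficient libraries, against 6110.4, 5203, 5638 and 5695 in adult wild-type libraries. Its pup counts were 2929, 2557 and 2053 in KEAP1-deficient libraries, against 1261, 1338 and 1305 in wild-type libraries. Its RNA fell by 0.39 in adults and rose by 0.93 in pups, without overlap at either stage (difference -1.33, SE 0.20, adjusted p = 2.4e-05). Maff, a small MAF partner, had an uncalled adult effect of -0.27 and rose by 2.84 in pups. Mafg, another small MAF partner, had 0.23 in adults, not called, and rose by 1.46 in pups. Nfe2l1, a relative of NRF2 known to control proteasome genes, fell by 0.47 in adults and rose by 0.49 in pups (difference -0.96, SE 0.11, adjusted p = 8.9e-08).

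**Figure D2:**
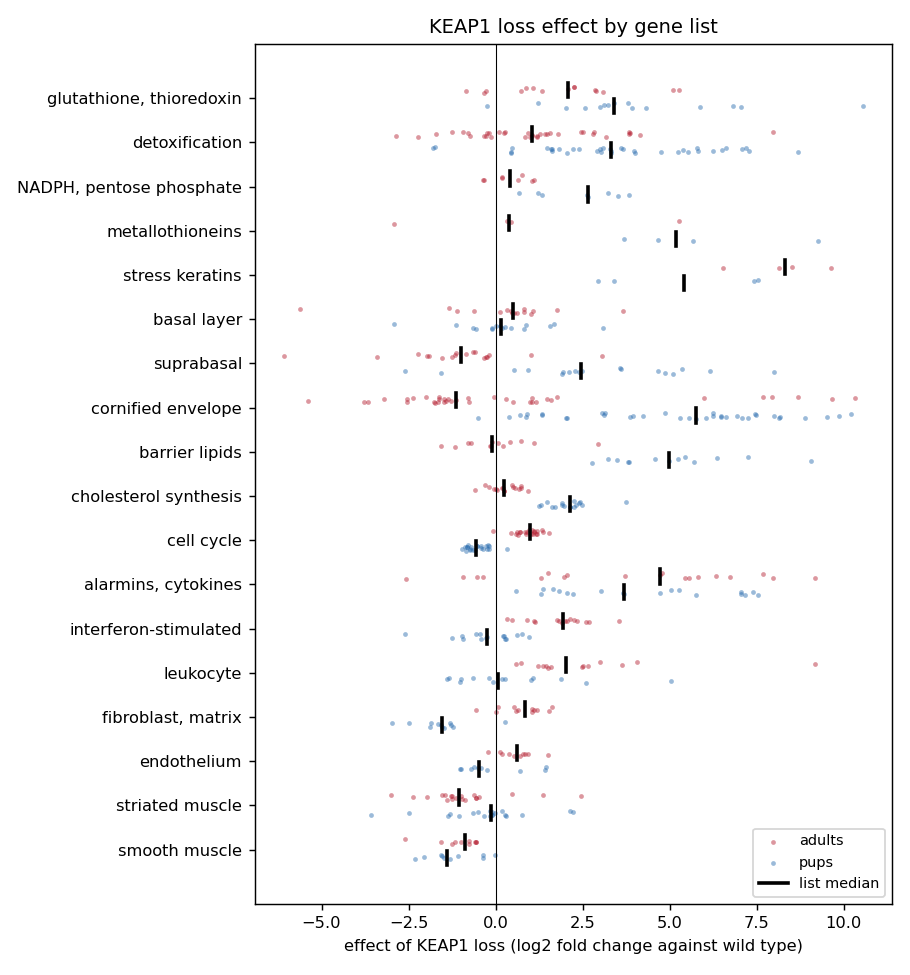
Effect of KEAP1 loss (log2 fold change of KEAP1-deficient over wild-type libraries) for each member of 18 gene lists, with adult effects drawn above pup effects and a black bar at each list median. The cornified envelope medians are -1.14 in adults and 5.74 in pups, while those of the cell cycle list are 0.99 in adults and -0.58 in pups.

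Stress keratins, which squamous epithelia switch on in injury and hyperproliferation, rose at both stages and more in adults. All 4 rose at each stage and all 4 differences were positive, with a median of 2.84. Krt16 had 92415, 82593, 89329 and 99103 normalised counts in adult KEAP1-deficient libraries, against 79.3, 91.6, 101 and 216 in adult wild-type libraries. At the pup stage it had 30407, 33636 and 26247 in KEAP1-deficient libraries, against 164, 157 and 159 in wild-type libraries. The genotypes were far apart at both stages, with effects of 9.64 in adults and 7.54 in pups (difference 2.10, SE 0.43, adjusted p = 0.0006). Krt17 had 35812, 26829, 26699 and 33038 normalised counts in adult KEAP1-deficient libraries, against 49.4, 93.9, 53.5 and 516 in adult wild-type libraries. For pups the counts were 14601, 13782 and 12559.9 in KEAP1-deficient libraries, against 2243, 992 and 946 in wild-type libraries. The wild-type pups were thus above all wild-type adults, and the difference of effects was 4.73 (SE 1.19, adjusted p = 0.0039), or 7.20 with the striated muscle covariate. Krt6a differed by 3.58 (SE 0.45, adjusted p = 3.5e-06).

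Basal layer genes were close to the background: 5 of 16 had a higher effect in adults and 5 a lower one, beside 20.6% and 26.5% of all genes tested. Pdpn, podoplanin, had 939, 954, 809.5 and 1033 normalised counts in adult KEAP1-deficient libraries, against 439.6, 558, 544 and 571 in adult wild-type libraries. The counts in pups were 486, 458 and 495 in KEAP1-deficient libraries, against 1263, 973 and 972 in wild-type libraries, the reverse order (difference 1.97, SE 0.20, adjusted p = 4.7e-09). Sox2, a transcription factor of the foregut epithelium, fell by 1.33 in adults and rose by 0.43 in pups. Trp63, the master regulator of stratified epithelia, had 0.13 in adults, not called, and rose by 1.66 in pups. Both keratins picked here after their values were seen each kept one direction at both stages: Krt14 rose by 3.67 in adults and 3.08 in pups, and Krt15 fell by 5.61 in adults and 2.92 in pups.

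Suprabasal genes, the differentiation program of the living upper layers, turned direction. Of 18 genes, 13 fell and 2 rose in adults, while 16 rose and 2 fell in pups; 13 turned with a called difference. The effect was lower in adults for 16, with a median difference of -3.99. Krt13, the main suprabasal keratin of the esophagus, had 105016, 77608, 115991 and 103140.0 normalised counts in adult KEAP1-deficient libraries, against 542698, 421066, 490498 and 420599 in adult wild-type libraries. Its values in pups were 218955, 209890.0 and 195183 in KEAP1-deficient libraries, against 55304, 55044 and 54467 in wild-type libraries. It was thus lower in every KEAP1-deficient adult and higher in every KEAP1-deficient pup (effects -2.23 and 1.92, difference -4.15, SE 0.16, adjusted p = 4.9e-16). Its partner Krt4, chosen after its values were seen, fell at both stages, by 6.09 in adults and 1.58 in pups. Dmkn, dermokine, fell by 0.66 in adults and rose by 4.86 in pups (difference -5.52, SE 0.19, adjusted p = 1.6e-17). Grhl1, a regulator of desmosomal genes, had -0.19 in adults, not called, and rose by 2.40 in pups. The one positive difference was that of Mal, a membrane proteolipid, which rose by 3.05 in adults and fell by 2.59 in pups and was likewise named after its values were seen.

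The cornified envelope list showed wider turns. Of 37 genes, 35 rose in pups, while 12 rose and 20 fell in adults; 19 turned with a called difference. The effect was lower in adults for 28 and higher for 2, with a median difference of -5.43. Lce1c, a late cornified envelope protein gene, had 426, 394, 335 and 546 normalised counts in adult KEAP1-deficient libraries, against 1946, 1839.8, 1919 and 1155 in adult wild-type libraries. Its levels in pups were 4206, 5376 and 4453 in KEAP1-deficient libraries, against 8.01, 16 and 27.4 in wild-type libraries. It was far lower in wild-type pups than in the other groups (difference -10.16, SE 0.46, adjusted p = 1.9e-12). The related Lce1j, Lce1g, Lce1f and Lce1m differed by -10.80, -10.63, -10.58 and -8.06, and Crct1, another gene of the epidermal differentiation complex, by -5.42.

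Lor, loricrin, a major protein of the cornified envelope chosen after its values were seen, had 4411, 1532, 1819 and 3171 normalised counts in adult KEAP1-deficient libraries, against 41602, 38478, 43366 and 20825 in adult wild-type libraries. In pups it had 20209, 25845 and 21924 in KEAP1-deficient libraries, against 128, 439 and 717 in wild-type libraries. The effects were -3.79 and 6.03. Genes of the small proline-rich Sprr2 family did not follow this order: Sprr2e, picked after its values were seen, rose by 10.31 in adults and 9.52 in pups, with no called difference (adjusted p = 0.46). Both positive differences of the list were those of Sprr2f (3.42) and Tchh, trichohyalin (4.65), named after their values were seen. Members of the Lce and Sprr2 families are close paralogs, and their single values are uncertain for that reason.

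Barrier lipid enzymes rose in all 13 cases in pups, while 2 rose and 4 fell in adults. All 13 differences were called and negative, with a median of -5.37. Alox12b, a lipoxygenase of the cornified lipid envelope, had 6970.1, 4141, 4174 and 6748 normalised counts in adult KEAP1-deficient libraries, against 10552, 8526, 10026 and 6335 in adult wild-type libraries. Its pup counts were 11256, 13962 and 11499 in KEAP1-deficient libraries, against 279.5, 382 and 541 in wild-type libraries. The adult genotypes overlapped by 1 wild-type library and the pup genotypes did not (effects -0.70 and 4.97, difference -5.68, SE 0.31, adjusted p = 3.6e-13). Lipm, an epidermal lipase, differed by -5.37 and Pla2g4e, a cytosolic phospholipase, by -3.49; Pla2g4e rose at both stages.

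**Figure D3:**
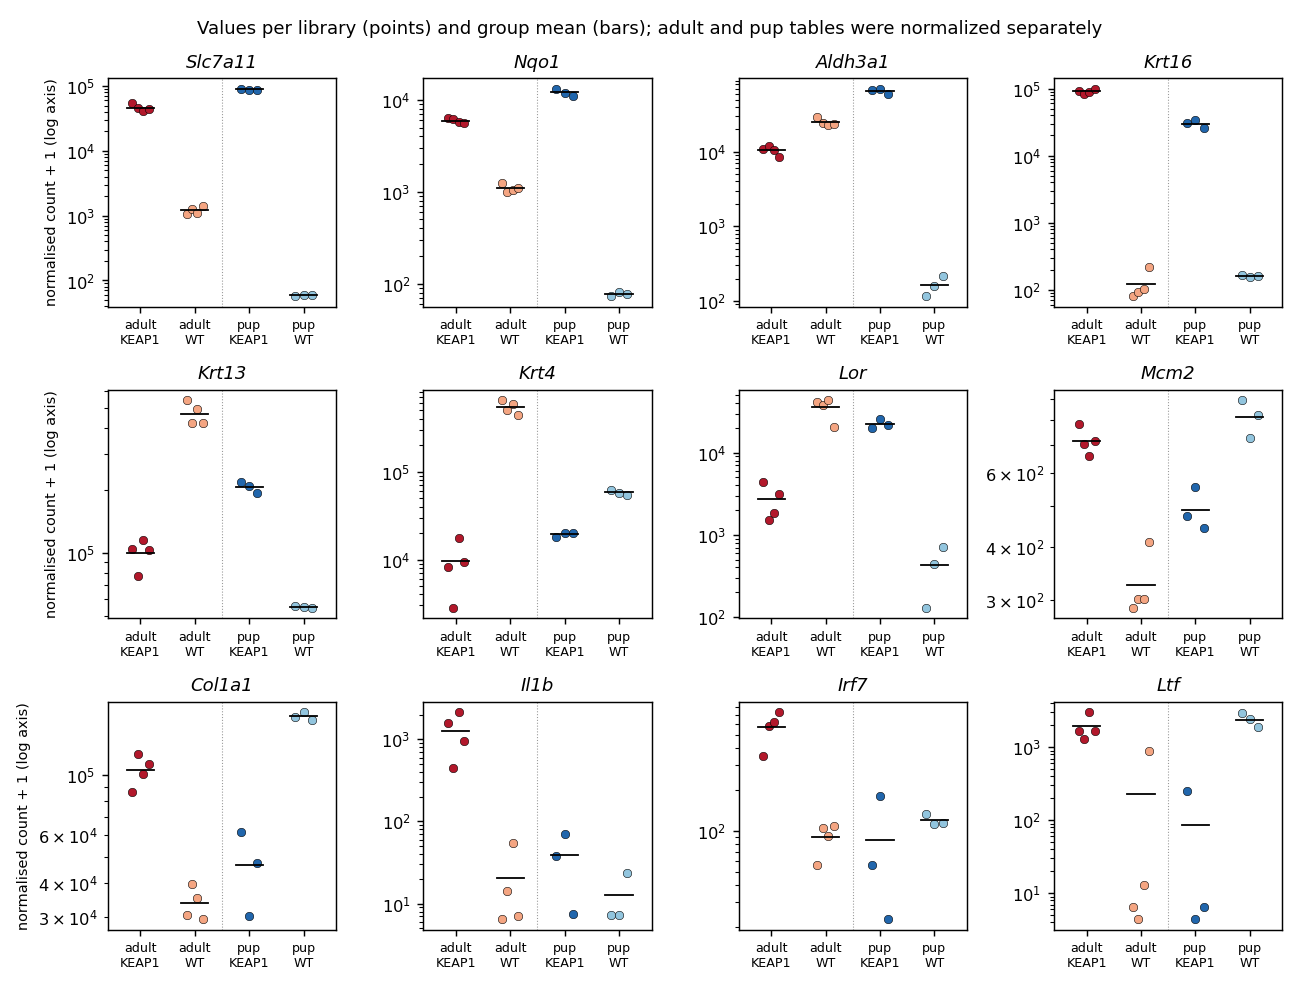
Normalised read counts plus 1 (log axes that differ between panels) of 12 genes in each library, with points for libraries and bars for group means, in the order adult KEAP1-deficient, adult wild type, pup KEAP1-deficient and pup wild type. Krt13, Aldh3a1 and Lor are lower in adult and higher in pup KEAP1-deficient libraries than in their wild-type libraries, and Mcm2 and Col1a1 show the reverse.

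The largest negative differences among genes with at least 50 normalised counts on average in each table also joined a fall in adults to a rise in pups. Mt4, a metallothionein of stratified epithelia, had 972, 1408, 1310.3 and 899 normalised counts in adult KEAP1-deficient libraries, against 8519.9, 7851, 9381 and 8480.4 in adult wild-type libraries. At the pup stage it had 6237, 6939 and 6020.4 in KEAP1-deficient libraries, against 7.12, 5.34 and 21.4 in wild-type libraries. This was the largest negative difference by that rule, at -12.17 (SE 0.44, adjusted p = 4.4e-09). The ubiquitous metallothioneins Mt1 and Mt2 had uncalled adult effects of 0.45 and 0.34 and rose by 3.70 and 4.67 in pups.

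Ada, adenosine deaminase, which is abundant in the upper digestive epithelium of adult mice, had 441, 386, 390.5 and 445 normalised counts in adult KEAP1-deficient libraries, against 23783, 21389.7, 24690.5 and 11059 in adult wild-type libraries. For pups the counts were 2013, 1599 and 1493 in KEAP1-deficient libraries, against 32.0, 28.5 and 29.9 in wild-type libraries. The effects were -5.54 and 5.76 (difference -11.30, SE 0.34, adjusted p = 2.7e-16). Slc6a19, a transporter of neutral amino acids, had 92.4, 62.3, 58.6 and 91.0 normalised counts in adult KEAP1-deficient libraries, against 1656, 1369.8, 1534 and 967 in adult wild-type libraries. The counts in pups were 566, 844 and 685 in KEAP1-deficient libraries, against 0, 9.78 and 17.1 in wild-type libraries, again the reverse order, and the difference of effects was -11.06 (SE 1.03, adjusted p = 2.4e-05).

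The largest positive differences by the same rule were those of Ltf, Cldn7, Pglyrp1, Fut9, B3galt5 and AA467197, all called higher in KEAP1-deficient adults and lower in KEAP1-deficient pups. Ltf, the iron-binding secretory protein lactotransferrin, had 1695, 1303, 3051 and 1667 normalised counts in adult KEAP1-deficient libraries, against 5.42, 3.48, 11.8 and 901 in adult wild-type libraries. Its values in pups were 249, 3.39 and 5.40 in KEAP1-deficient libraries, against 2916, 2404 and 1876 in wild-type libraries. One library in each of the lower groups was far above its fellows, and the difference of 13.20 had an SE of 2.82 (adjusted p = 0.001). With the striated muscle covariate it was 13.27 with an SE of 4.87 (adjusted p = 0.056). Pglyrp1, a peptidoglycan recognition protein, had 1702, 625, 1521 and 1318 normalised counts in adult KEAP1-deficient libraries, against 6.77, 9.27, 12.4 and 94.1 in adult wild-type libraries. Its levels in pups were 40.5, 49.7 and 22.7 in KEAP1-deficient libraries, against 766, 518 and 379.9 in wild-type libraries. Its genotypes did not overlap at either stage (difference 9.94, SE 1.22, adjusted p = 6.5e-07).

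Cldn7, a tight junction protein, differed by 10.26. Fut9 and B3galt5, glycosyltransferases, differed by 9.62 and 9.48, and AA467197 by 9.21. Adult wild-type library 4 was the highest of its group for all 6 genes. The wild-type pup libraries that held the high values also held markers of ciliated and mucous cells. Foxj1, the regulator of motile cilia, was at 4.27, 4.51 and 3.24 normalised counts in KEAP1-deficient pups, against 99.7, 84.5 and 51.3 in wild-type pups. The mucin gene Muc5b, which like Foxj1 was not named by rule, was at 9.60, 112 and 5.40 in KEAP1-deficient pups. In wild-type pups Muc5b was at 1089, 2034 and 410. It was at 14.8 normalised counts or below in the adult libraries, KEAP1-deficient and wild type. The part of such cells in these differences was not tested.

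Cell cycle genes rose in adults and fell in pups. Of 22 genes, 18 rose in adults and 15 fell in pups; 19 differences were called, all positive, with a median of 1.58, and 12 genes turned. Mcm2, a subunit of the replicative helicase, had 782, 699.7, 656 and 713 normalised counts in adult KEAP1-deficient libraries, against 286, 300.3, 299.9 and 410.0 in adult wild-type libraries. In pups it had 473, 553 and 444 in KEAP1-deficient libraries, against 890.2, 723 and 821 in wild-type libraries. No library crossed to the other genotype's range, and the order was opposite at the stages (effects 1.15 and -0.73, difference 1.88, SE 0.20, adjusted p = 2.1e-08). The helicase subunits Mcm3 and Mcm4 differed by 2.06 and 1.54. With the striated muscle covariate, 12 differences of this list were called, all positive, while 8 genes rose in adults and 5 turned. With both libraries that stand apart left out, 19 differences were called, 13 genes rose in adults and 8 turned.

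Fibroblast and matrix genes had a similar pattern. Of 12 genes, 8 rose and 1 fell in adults and 11 fell in pups; 11 differences were called, all positive, with a median of 2.63. Col3a1, a fibrillar collagen, had 142377, 181444, 147818 and 172827 normalised counts in adult KEAP1-deficient libraries, against 50854, 65714, 55094 and 49375 in adult wild-type libraries. Its pup counts were 83595, 41095 and 69833 in KEAP1-deficient libraries, against 186662, 207517 and 193218 in wild-type libraries. The genotypes were apart at both stages, in opposite order (difference 3.20, SE 0.30, adjusted p = 2.1e-08). Col5a1, another collagen, differed by 2.37 and Mfap5, a microfibril protein, by 2.71. Pdgfra, a defining fibroblast marker chosen after its values were seen, had uncalled effects of 0.00 in adults and 0.26 in pups.

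Endothelial genes followed to a smaller extent, with 6 of 10 differences positive and 1 negative, beside 20.6% and 26.5% of all genes tested. Cdh5, the vascular cadherin, had 1833, 1576, 1524 and 1558 normalised counts in adult KEAP1-deficient libraries, against 931, 1301, 986 and 795 in adult wild-type libraries. At the pup stage it had 1312, 1028 and 1357 in KEAP1-deficient libraries, against 2307, 2521 and 2602 in wild-type libraries, again the reverse order (difference 1.73, SE 0.26, adjusted p = 3.1e-05). Egfl7 differed by 1.47 and Pecam1 by 1.03.

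Alarmin and cytokine genes rose at both stages but split between them: of 19 tested, 15 rose and 3 fell in adults and 16 rose in pups. The effect was higher in adults for 7 and lower for 7, beside 20.6% and 26.5% of all genes tested. The 7 lower in adults included the interleukin-1 family members of squamous cells. Il18 had 137, 86.3, 81.1 and 135 normalised counts in adult KEAP1-deficient libraries, against 662, 651, 730.4 and 548 in adult wild-type libraries. For pups the counts were 828, 879 and 801 in KEAP1-deficient libraries, against 19.6, 30.2 and 48.8 in wild-type libraries. It fell by 2.58 in adults and rose by 4.72 in pups (difference -7.30, SE 0.38, adjusted p = 1e-13). Il1f5, the interleukin-36 receptor antagonist, differed by -8.00, and Il1f9, interleukin-36 gamma, which rose at both stages, by -6.24.

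Those higher in adults, named after their values were seen, were Defb14, Lcn2, Cxcl1, Cxcl2, Cxcl3, S100a8 and Il1b, which code for antimicrobial proteins, neutrophil attractants and interleukin-1 beta. Il1b had 1562, 443, 2154 and 950.4 normalised counts in adult KEAP1-deficient libraries, against 5.42, 13.3, 52.9 and 6.05 in adult wild-type libraries. The counts in pups were 37.3, 68.8 and 6.48 in KEAP1-deficient libraries, against 6.23, 6.23 and 22.2 in wild-type libraries. It rose by 6.32 in adults and its pup effect of 1.35 was not called, the pup libraries overlapping (difference 4.97, SE 1.05, adjusted p = 0.00072). With the striated muscle covariate 2 of these positive differences were called in place of 7.

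Interferon-stimulated genes rose in adults. Of 16 tested, 14 rose in adults, while 1 rose and 1 fell in pups; 10 differences were called, all positive, with a median of 1.68. Cxcl10, a T cell attractant, had 80.6, 97.4, 99.9 and 96.8 normalised counts in adult KEAP1-deficient libraries, against 4.06, 12.8, 5.60 and 8.07 in adult wild-type libraries. Its values in pups were 18.1, 4.51 and 5.40 in KEAP1-deficient libraries, against 10.7, 6.23 and 12.8 in wild-type libraries. The adult genotypes were apart and the pup genotypes overlapped (difference 3.82, SE 0.71, adjusted p = 0.00014). Usp18, a protease that removes the ubiquitin-like ISG15, had 77.2, 98.2, 113 and 103 normalised counts in adult KEAP1-deficient libraries, against 76.5, 64.9, 66.0 and 73.3 in adult wild-type libraries. Its levels in pups were 10.7, 45.1 and 6.48 in KEAP1-deficient libraries, against 126, 82.7 and 83.0 in wild-type libraries. Its adult effect of 0.46 was not called and it fell by 2.60 in pups (difference 3.06, SE 0.65, adjusted p = 0.00098). Ifit2 differed by 1.54. Without library 2 of the KEAP1-deficient pups, which was the highest of its group for Usp18, 15 interferon differences were called in place of 10, all positive, and the median was 2.46. Under the striated muscle covariate 8 interferon genes rose in adults in place of 14, and 10 differences were called.

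Leukocyte markers rose mainly in adults. Of 14 tested, 12 rose in adults, while 5 rose and 2 fell in pups; 10 differences were called, all positive, with a median of 1.87. Their summed level was 56069 to 73135 normalised counts in adult KEAP1-deficient libraries, against 9075 to 13825 in adult wild-type libraries. In pups it was 4566 to 6622 in KEAP1-deficient libraries, against 3821 to 4022 in wild-type libraries. S100a8, a neutrophil and keratinocyte gene of both this list and the alarmin list, accounts for much of the adult sum, at 24571 to 28914 normalised counts in KEAP1-deficient libraries, against 21.0 to 92.8 in wild-type libraries. Ptprc, which encodes the pan-leukocyte antigen CD45, had 1790.4, 1839, 2012 and 1876 normalised counts in adult KEAP1-deficient libraries, against 293, 317, 487 and 256 in adult wild-type libraries. In pups it had 231, 121 and 199.8 in KEAP1-deficient libraries, against 121, 152 and 172 in wild-type libraries. The adult genotypes were apart and the pup genotypes overlapped (difference 2.24, SE 0.35, adjusted p = 8.7e-06). The macrophage genes Csf1r and Adgre1 rose in adults and fell in pups, with differences of 1.84 and 2.35. With the striated muscle covariate, 2 leukocyte differences were called in place of 10, and those of Ptprc (adjusted p = 0.094) and Adgre1 (adjusted p = 0.054) were not among them. The part of leukocytes in the alarmin and interferon differences was not tested.

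Cholesterol synthesis genes rose in pups in all 17 cases, while in adults 7 rose and 2 fell. All 17 differences were called and negative, with a median of -1.78. Fdft1, squalene synthase, had 2151, 1806, 1904 and 1731 normalised counts in adult KEAP1-deficient libraries, against 2701, 1950.0, 2021 and 2075 in adult wild-type libraries. Its pup counts were 2543, 3248 and 2948 in KEAP1-deficient libraries, against 575, 529 and 659.7 in wild-type libraries. The adult libraries overlapped and the pup libraries did not (effects -0.20, not called, and 2.31; difference -2.50, SE 0.15, adjusted p = 7.5e-13). Hsd17b7 differed by -2.81 and Dhcr7, which catalyses the last step of the pathway, by -1.78.

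In fatty acid synthesis 6 of 11 differences were lower in adults and 2 higher, beside 26.5% and 20.6% of all genes tested. Elovl6, a fatty acid elongase, fell by 0.73 in adults and rose by 2.67 in pups (difference -3.41, SE 0.17, adjusted p = 4.6e-14). Fasn, fatty acid synthase, fell by 0.62 in adults and rose by 1.65 in pups, and Acaca, acetyl-CoA carboxylase, differed by -1.43. In glycolysis 8 of 13 differences were called, all lower in adults, beside 26.5% of all genes tested. Hk1, a hexokinase, rose by 0.25 in adults and 2.89 in pups (difference -2.64, SE 0.12, adjusted p = 1.9e-15). Hk2 and the pyruvate kinase gene Pkm differed by -1.70 and -0.72.

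Over all genes tested, 26.5% had a lower and 20.6% a higher effect in adults. Of the ATF4, unfolded protein response and p53 lists, the ATF4 list departed most from the lower share, with a median difference of -0.86. Of 13 ATF4 target genes, which act in amino acid stress, 8 had a lower effect in adults (4 with the striated muscle covariate), among them Phgdh (-1.30), Psat1 (-1.07) and Trib3 (-1.64). Of 12 unfolded protein response genes, 4 did, and Calr, Hyou1 and Creld2 differed by -0.70, -0.81 and -0.73; with the striated muscle covariate their differences were -0.29, -0.38 and -0.42 (adjusted p = 0.24, 0.29 and 0.54), and without adult wild-type library 4 the list had 2 called differences. Of 12 p53 target genes, 5 had a lower and 2 a higher effect in adults, with a median difference of -0.15; with the covariate 3 had a lower and 1 a higher effect. Cdkn1a, the cell cycle inhibitor p21, had 2985, 2236, 2520.0 and 2509 normalised counts in adult KEAP1-deficient libraries, against 5350.4, 5119, 5223 and 4168 in adult wild-type libraries. At the pup stage it had 4914, 6085 and 5885 in KEAP1-deficient libraries, against 2779, 2768 and 2449.8 in wild-type libraries, the reverse order (difference -2.03, SE 0.16, adjusted p = 8.3e-11). Zmat3 and Sesn2 differed by -1.06 and -1.16.

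Signalling lists were mixed. Of 10 EGFR ligand and receptor genes, 7 had a lower and 1 a higher effect in adults, beside 26.5% and 20.6% of all genes. Ereg, epiregulin, had 1649.6, 1289, 771 and 1351 normalised counts in adult KEAP1-deficient libraries, against 1651, 1027, 1433 and 1323 in adult wild-type libraries. For pups the counts were 2958, 5407 and 5321 in KEAP1-deficient libraries, against 67.7, 81.8 and 81.3 in wild-type libraries. The adult libraries overlapped and the pup libraries were far apart (difference -5.96, SE 0.33, adjusted p = 4e-13). The ligands Btc and Tgfa differed by -2.27 and -1.78. Under the striated muscle covariate 3 differences of this list were lower in place of 7, and that of Tgfa was -1.15 (adjusted p = 0.060). The 1 higher gene, named after its values were seen, was Areg, amphiregulin, at 2.20; without adult wild-type library 4 it was not called.

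In the Notch list 6 of 10 differences were lower and 2 higher in adults, beside 26.5% and 20.6% of all genes tested. Nrarp, a feedback inhibitor, had -0.24 in adults, not called, and rose by 1.38 in pups, and Dll1 and Notch3 fell in adults and rose in pups (differences -1.05 and -0.88). Of 12 immediate early genes, 7 had a lower effect in adults, among them Jun (-1.05), Egr3 (-2.70) and Ier3 (-0.80); with the striated muscle covariate 4 did. Of 6 aryl hydrocarbon receptor genes tested, 2 were lower and 2 higher, beside 26.5% and 20.6% of all genes tested. They were Nqo1, given above, Tiparp (-0.58), Ahrr (2.67) and Cyp1b1 (1.48), the last named after its values were seen. Ahrr was low in all libraries, at most 40.4 normalised counts, and its difference was 1.71 with an offset of 4. Under the striated muscle covariate the differences of Ahrr (1.59, adjusted p = 0.36) and Tiparp (-0.54, adjusted p = 0.26) were not called, and 1 of the 6 was.

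Markers of muscle moved with genotype at both stages. The summed striated muscle list was 474084 to 715981 normalised counts in adult KEAP1-deficient libraries, against 1304890 to 1512720 in adult wild-type libraries, without overlap. In pups it was 913082 to 1099420 in KEAP1-deficient libraries, against 806114 to 905864 in wild-type libraries, also without overlap and in the opposite order. Of its 20 genes 16 fell and 2 rose in adults, and 6 fell and 2 rose in pups; 12 differences were negative and 3 positive. Ckm, muscle creatine kinase, had 8766, 8501, 7281 and 9588 normalised counts in adult KEAP1-deficient libraries, against 31143, 32707, 31817 and 39363 in adult wild-type libraries. The counts in pups were 23118, 18533 and 22413 in KEAP1-deficient libraries, against 21317, 22997 and 23745 in wild-type libraries, which overlap (difference -1.89, SE 0.23, adjusted p = 8e-07). Ttn, titin, differed by -1.55.

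Myh1, a fast adult myosin heavy chain, fell by 0.88 in adults and rose by 2.13 in pups (difference -3.01, SE 0.24, adjusted p = 9.2e-09). The 3 positive differences were those of Myh3, the embryonic myosin (3.85), Myh7, the slow myosin (4.05), and Tnnt1, slow troponin T (3.83), named after their values were seen. Myh3 had 130.1, 202, 153 and 175 normalised counts in adult KEAP1-deficient libraries, against 56.9, 70.7, 97.7 and 39.0 in adult wild-type libraries. Its values in pups were 2046, 2876 and 3933 in KEAP1-deficient libraries, against 16371, 16556 and 15099.5 in wild-type libraries. The order of the genotypes was opposite at the stages. Smooth muscle genes fell in adults in 9 of 10 cases and in pups in 4, or in 7 with TMM scaling. Their median effect was -0.89 in adults and -1.40 in pups, and their median difference was 0.29. The summed list was 25739 to 46351 normalised counts in adult KEAP1-deficient libraries, against 48320 to 65505 in adult wild-type libraries. In pups it was 32272 to 40271 in KEAP1-deficient libraries, against 68940.1 to 70292 in wild-type libraries, so that it was lower with KEAP1 loss at both stages without overlap. The called differences were those of Lmod1 (-2.25) and Des (-0.55). Neither was called with the striated muscle covariate (-1.42, adjusted p = 0.10, and -0.24, adjusted p = 0.46), and 1 other smooth muscle difference was, a positive one.

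The summed striated muscle level thus moved with genotype beside every effect above, down in KEAP1-deficient adults and up in KEAP1-deficient pups. The mean of the log2 values, which weighs each marker equally, was 11.94 to 12.41 in adult KEAP1-deficient libraries, against 12.93 to 13.27 in adult wild-type libraries. In pups this mean was 13.07 to 13.43 in KEAP1-deficient libraries, against 13.41 to 13.60 in wild-type libraries, so that it overlapped and leaned the other way from the sum. With that mean as a covariate in each table's fit, 5028 differences were called, 4835 of them shared with the 8967, and 778 genes turned. Because the mean did not overlap between adult genotypes, the fit cannot fully separate muscle from genotype, and lost calls do not show a part of muscle. In that fit a lower effect in adults was called for 11 of 15 glutathione, 16 of 18 suprabasal, 25 of 37 cornified envelope and 16 of 17 cholesterol genes. Fewer genes turned: 9 in place of 13 of the suprabasal list, 10 in place of 19 of the cornified envelope list and 1 in place of 4 of the barrier lipid list. Adult calls fell in number too, to 11 cornified envelope genes lower in place of 20, 1 barrier lipid gene lower in place of 4 and 1 cholesterol gene higher in place of 7.

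Lists of other tissues held few called differences, beside 47.1% of all genes tested. Median differences were -0.10 for nerve and glia, 0.59 for red blood cell, 1.29 for adipose and 3.22 for airway and thyroid genes. For 3 glandular stomach genes the median was -1.98, or 1.16 without library 2 of the KEAP1-deficient pups. Few calls in these short lists do not show equal effects. The nerve and glia list had 1 called difference, that of Ret, the receptor of enteric neurons (1.64). The adipose list had 1, that of Plin4, a lipid droplet protein, which fell by 1.96 in adults and rose by 1.44 in pups. The airway and thyroid list had 1, that of Slc26a4, the anion exchanger pendrin. It had 804, 496, 660.0 and 519.6 normalised counts in adult KEAP1-deficient libraries, against 0.677, 0, 0 and 0.672 in adult wild-type libraries. Its levels in pups were 0, 12.4 and 1.08 in KEAP1-deficient libraries, against 6.23, 0.89 and 0.856 in wild-type libraries. Adult KEAP1-deficient libraries alone held it at appreciable levels; its fitted difference depends on the offset, since 3 of the 4 groups were near 0.

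**Figure D4:**
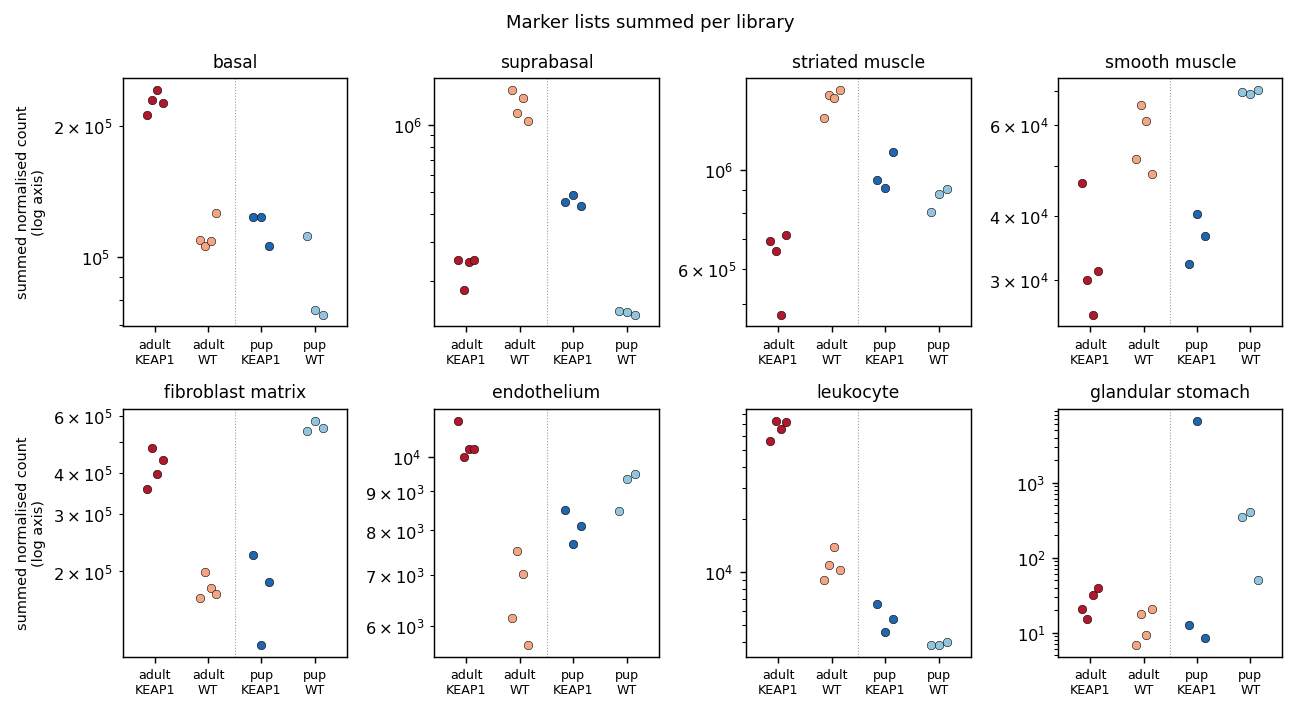
Summed normalised read counts (log axes that differ between panels) of 8 cell type marker lists in each library, in the order adult KEAP1-deficient, adult wild type, pup KEAP1-deficient and pup wild type. Suprabasal and striated muscle sums are lower in adult KEAP1-deficient than in adult wild-type libraries, leukocyte sums are higher, and KEAP1-deficient pup library 2 stands alone in the glandular stomach panel.

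Equal effects were found as well. For 722 genes called at both stages in the same direction, the 95% interval of the difference lay within -0.5 to 0.5. After Gsr, those with the largest effects were Homer3, a postsynaptic scaffold gene (1.80 in adults and 1.61 in pups), Ly6a, which encodes the surface antigen Sca-1 (1.54 and 1.54), and Coro2a, an actin-binding coronin (1.54 and 1.53). Ly6a had 4457, 5052, 4484 and 5250.0 normalised counts in adult KEAP1-deficient libraries, against 1365, 1518, 1926 and 1847 in adult wild-type libraries. In pups it had 2158, 2667 and 1994 in KEAP1-deficient libraries, against 852, 786 and 701 in wild-type libraries. The genotypes were apart in the same order at both stages. In the fit with the striated muscle covariate, the differences of Gsr, Homer3, Ly6a and Coro2a were 0.25, 0.41, 0.48 and 0.49. Their SEs were 0.30, 0.20, 0.28 and 0.30. None was called, but that fit does not place them within -0.5 to 0.5.

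A difference of effects equals the adult-minus-pup gap in KEAP1-deficient mice minus the same gap in wild-type mice. For the keratinization lists the median wild-type gap was the larger part. The gap sets levels across separately normalized tables and is given as a description. Over all 19031 genes its median was -0.18 in KEAP1-deficient and -0.11 in wild-type mice, and its SD was 1.02 in KEAP1-deficient and 1.26 in wild-type mice. For the suprabasal list the median gap was -1.03 in KEAP1-deficient mice, against 3.04 in wild-type mice, and for the cornified envelope list -1.41 against 4.72. For barrier lipid genes it was -1.15 in KEAP1-deficient mice and 3.86 in wild-type mice, and for cholesterol genes -0.45 and 1.37. Wild-type adults thus stood far above wild-type pups for these lists, whereas KEAP1-deficient adults stood below KEAP1-deficient pups. Of the 2117 genes that turned direction, 1425 (67.3%) had a smaller absolute gap in KEAP1-deficient mice, against 54.8% of all genes tested. Those genes were selected by the difference between these same gaps, so the share is a description and not a separate result. Interferon and leukocyte lists went the other way, with median gaps of 2.79 and 2.86 in KEAP1-deficient mice, against 0.49 and 0.57 in wild-type mice.

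**Figure D5:**
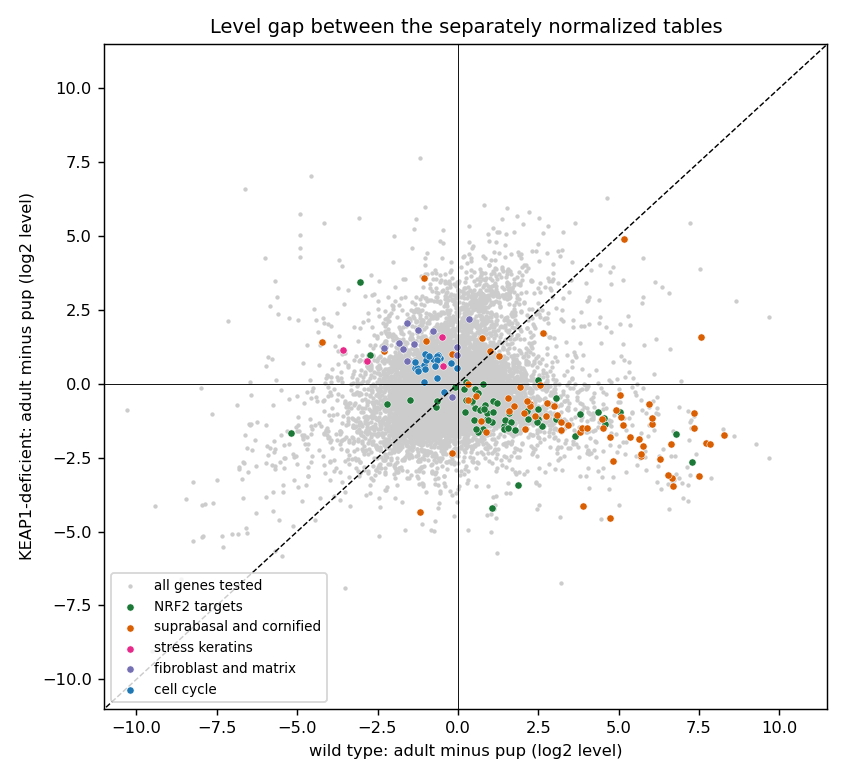
Adult-minus-pup gap in mean log2 level for KEAP1-deficient mice (vertical axis) against wild-type mice (horizontal axis) for 19031 genes, with members of 5 groups of gene lists coloured and a dashed line of equal gap. Suprabasal and cornified genes spread over several log2 units to the right on the wild-type axis and lie mostly below 0 on the KEAP1-deficient axis.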

How the data were processed

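RNA-seq of mouse esophagus was deposited as 2 tables, adult and pup, normalized separately. The deposited values are log2 values, and Salmon and the build GRCm39 are named per the submitters' processing notes, without versions. The values fit log2(reads divided by a size factor, plus 4): after conversion back, 100% of values up to 1000 reads were whole within 0.1. Each table was fitted with limma 3.58.1 (R 4.3.3, statmod 1.5.0; trend and robust) on log2(normalised count + 1), all groups of a table sharing the fit, for genes reaching 1 normalised count in as many libraries as the table's smallest group has. Effects were subtracted between tables, with the SE from both and Welch-Satterthwaite degrees of freedom. Benjamini-Hochberg adjusted p-values below 0.05, over all 19031 genes for the difference, were called. The fits were checked on simulated data. Compared libraries held 18791982 to 32281362 reads, and their number limits the precision.

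The members and lists were chosen with earlier results of these data known. Genes were named by rule: Keap1, Nfe2l2 and Nqo1; the 6 largest differences each way and the 4 largest in each orientation of opposite calls, at a mean of at least 50 normalised counts in each table; the 4 largest equal effects; and up to 3 called genes of each of 35 lists with the smallest adjusted p. Others are said to be chosen after their values were seen. The remaining 11 libraries (NRF2L30F/+ in 4 adult libraries, NRF2L30F/L30F in 4 adult and 3 pup libraries) entered the filter on low values and the shared variance. In the alternative fits they also entered the covariate and replicate block terms.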

Additional observations from a re-analysis of the deposited data

Results flagged for a closer look

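The effect of KEAP1 loss differed between adults and pups, by the Welch-Satterthwaite test of the difference between the limma effects, for most genes named above. Most of these genes were named by rules that require a called difference, so this was fixed by the choice and is not a separate result. Each value is the adult log2 fold change minus the pup one. Among NRF2 and its regulators the difference was -1.33 for Nfe2l2, -3.11 for Maff, -1.23 for Mafg and -0.96 for Nfe2l1. Among glutathione genes the difference was -5.30 for Slc7a11, -5.98 for Gpx2 and -2.06 for Gss. Among detoxification genes the difference was -4.83 for Nqo1, -9.93 for Aldh3a1 and -4.03 for Cbr3. Among NADPH genes the difference was -3.06 for G6pdx, -3.35 for Pgd and -3.54 for Me1. Among heme and iron genes the difference was -4.55 for Hmox1, -1.76 for Blvrb and -0.95 for Fth1. Among proteasome subunits the difference was -0.87 for Psma7, -0.81 for Psmd2 and -1.01 for Psmd12. Among keratins of the stress response the difference was 3.58 for Krt6a, 2.10 for Krt16 and 4.73 for Krt17. Among basal layer genes the difference was -1.76 for Sox2, 1.97 for Pdpn and -1.53 for Trp63. Among suprabasal genes the difference was -5.52 for Dmkn, -4.15 for Krt13 and -2.59 for Grhl1. Among cornified envelope genes the difference was -10.80 for Lce1j, -10.63 for Lce1g, -10.58 for Lce1f, -10.16 for Lce1c, -8.06 for Lce1m and -5.42 for Crct1. Among barrier lipid genes the difference was -5.37 for Lipm, -5.68 for Alox12b and -3.49 for Pla2g4e.

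Among metallothioneins the difference was -12.17 for Mt4, -4.33 for Mt2 and -3.24 for Mt1. Among transport and purine genes the difference was -11.30 for Ada and -11.06 for Slc6a19. The largest positive differences were 13.20 for Ltf, 10.26 for Cldn7, 9.94 for Pglyrp1, 9.62 for Fut9, 9.48 for B3galt5 and 9.21 for AA467197. Among cell cycle genes the difference was 2.06 for Mcm3, 1.88 for Mcm2 and 1.54 for Mcm4. Among alarmins and cytokines the difference was -7.30 for Il18, -8.00 for Il1f5 and -6.24 for Il1f9. Among interferon genes the difference was 1.54 for Ifit2, 3.82 for Cxcl10 and 3.06 for Usp18. Among leukocyte markers the difference was 1.84 for Csf1r, 2.24 for Ptprc and 2.35 for Adgre1. In cholesterol synthesis the difference was -2.50 for Fdft1, -1.78 for Dhcr7 and -2.81 for Hsd17b7. In fatty acid synthesis the difference was -3.41 for Elovl6, -1.43 for Acaca and -2.27 for Fasn. In glycolysis the difference was -2.64 for Hk1, -1.70 for Hk2 and -0.72 for Pkm. Among p53 targets the difference was -2.03 for Cdkn1a, -1.06 for Zmat3 and -1.16 for Sesn2.

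Among ATF4 targets the difference was -1.30 for Phgdh, -1.07 for Psat1 and -1.64 for Trib3. Among unfolded protein response genes the difference was -0.70 for Calr, -0.81 for Hyou1 and -0.73 for Creld2. Among Notch genes the difference was -1.62 for Nrarp, -1.05 for Dll1 and -0.88 for Notch3. Among EGFR ligands the difference was -5.96 for Ereg, -2.27 for Btc and -1.78 for Tgfa. Among aryl hydrocarbon receptor genes the difference was 2.67 for Ahrr and -0.58 for Tiparp. Among immediate early genes the difference was -1.05 for Jun, -2.70 for Egr3 and -0.80 for Ier3. Among muscle genes the difference was -3.01 for Myh1, -1.55 for Ttn, -1.89 for Ckm, -2.25 for Lmod1 and -0.55 for Des. Among matrix genes the difference was 2.37 for Col5a1, 2.71 for Mfap5 and 3.20 for Col3a1. Among endothelial genes the difference was 1.73 for Cdh5, 1.47 for Egfl7 and 1.03 for Pecam1. In the remaining lists the difference was 1.64 for Ret, -3.40 for Plin4 and 8.83 for Slc26a4. The value for Slc26a4 depends on the offset, since its libraries were near 0 in 3 of the 4 groups.

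Single adult libraries stood far from the other 3 of their group, past Dixon's critical value for 4 samples, in 21 of 216 groups of 4 for the 108 genes named by rule. Chance flags about 1 in 20 groups. Adult KEAP1-deficient and wild-type libraries other than wild-type library 4 held 7 of them, in normalised counts: Gsr in KEAP1-deficient library 1 (highest, 3896), Hmox1 in KEAP1-deficient library 3 (lowest, 1591), Cxcl10 in KEAP1-deficient library 1 (lowest, 80.6), Fdft1 in wild-type library 1 (highest, 2701), Ahrr in KEAP1-deficient library 2 (lowest, 24), Lmod1 in KEAP1-deficient library 1 (highest, 379) and Cdh5 in KEAP1-deficient library 1 (highest, 1833). Wild-type library 4 held the other 14, in normalised counts: Ltf (highest, 901), Cldn7 (highest, 34.3), Pglyrp1 (highest, 94.1), Fut9 (highest, 42.3), B3galt5 (highest, 22.9), AA467197 (highest, 43), Lce1f (lowest, 712), Psmd12 (highest, 1308), Krt6a (highest, 4445), Krt16 (highest, 216), Krt17 (highest, 516), Lce1c (lowest, 1155), Mcm2 (highest, 410.0) and Ifit2 (highest, 211). The pup groups of 3 were not examined this way. The cause of the departures of library 4 was not tested.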

How the results depend on the processing

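The count of called differences, 8967, stayed within 1.5 times under most alternatives. It was 9111 with an offset of 4, 8830 with an offset of 0.1, 8972 with no filter, 8890 with TMM scaling, 9323 with limma-voom on recovered reads, 9666 with only the compared groups fitted, 9759 in a joint interaction fit and 8866 with Ddx3y as a covariate. Thinning adult reads to pup depth, chosen after seeing the data, gave 8965. Requiring an absolute log2 change of at least 1 gave 4986 differences, 503 genes in opposite directions, 3515 calls in adults and 4676 in pups. With the striated muscle covariate these counts were 5028, 778, 4501 and 5822. In adults that covariate did not overlap between genotypes, so the fit cannot fully separate it from genotype. Tiparp, for example, lost its call while its difference went from -0.58 to -0.54 and its SE from 0.19 to 0.33. The cause of the lower counts was not tested. Leaving out 1 replicate gave 8164 to 8757 differences, 1842 to 2087 opposite genes, 8246 to 8842 calls in adults and 8780 to 9805 in pups. TMM scaling turned the pup split to 5216 higher and 5300 lower, against 5528 and 4876 with the deposited scaling.

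With a replicate block the counts were 9005, 2119, 9178 and 10319. Same-numbered libraries deviated together with correlations of -0.033 to 0.033 in adults and 0.047 to 0.182 in pups, so the numbers were not taken to pair the libraries.

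No called difference of a named gene changed sign. The uncalled differences of Gsr, Ly6a and Coro2a, near 0, turned negative under some alternatives, down to -0.02, -0.08 and -0.15. Under the striated muscle covariate they rose instead, to 0.25, 0.48 and 0.49, and were not called. Of 27 lost calls, 12 were lost at an absolute change of 1 and 12 with the muscle covariate. The other 3 were those of Creld2, without adult wild-type library 1 (adjusted p = 0.059 by the test of the difference), adult wild-type library 4 (0.051) or adult KEAP1-deficient library 1 (0.058). Compared pup libraries were shallower than the compared adult ones, and depth limits genes near 0 most.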
